A study of Mus musculus with 8 samples.

Results

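The 9 genes described here encode complement proteins, and their RNA lay at very different levels in cells sorted as cardiac fibroblasts. The genes are C1s, C2, C3, C4b, C6, C7, Cfb, Cfd and Serping1. They were taken by symbol from the tables of counts, and each of the 9 symbols was found in 1 entry, of 34399 gene symbols in all. The RNA came from GFP-positive cells of mouse hearts, sorted 4 weeks after surgery to constrict the transverse aorta (TAC), which loads the left ventricle with excess pressure. The study asked what fibroblasts of the overloaded heart transcribe when TGF-beta signalling is removed at its receptors or at its Smad transducers.

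All 8 libraries came from mice that carried a tamoxifen-dependent Cre (MerCreMer) and a Cre-dependent eGFP reporter in the Rosa locus. The mice were 8 to 10 weeks old at surgery, and all received tamoxifen by injection at 100 mg/kg for 2 days and then in chow at 40 mg/kg. The Smad2/3 DKO group (double knockout, libraries HK15 and HK16) had Cre in the Postn locus and floxed alleles of Smad2 and Smad3 on both chromosomes. Its Postn-Cre control group (HK3 and HK4) had the same Cre and reporter, and the labels list no floxed allele for it. The Tgfbr1/2 DKO group (HK2 and another HK4) had Cre in the Tcf21 locus and floxed alleles of Tgfbr1 and Tgfbr2. Its Tcf21-Cre control group (HK6 and HK7) had the same Cre and reporter, again with no floxed allele listed. Postn is a gene of activated fibroblasts and Tcf21 one of resident fibroblasts, so each reporter marked only cells in which its driver had been active under tamoxifen. The labels do not say whether a library came from 1 animal or a pool, so that p-values measure the spread between libraries only.

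Each library held between 21477742 and 32594649 counts, and 3 counts, taken as the limit of detection, equal 0.092 to 0.14 CPM (counts scaled to the library total). Smad2 was at 84.5 and 78.2 CPM in Smad2/3 DKO and at 95.4 and 82.3 CPM in Postn-Cre control, while Smad3 had 70.5 and 109 CPM in Smad2/3 DKO and 114 and 92.7 CPM in Postn-Cre control. Tgfbr1 was at 181 and 193 CPM in Tgfbr1/2 DKO and at 229 and 238 CPM in Tcf21-Cre control, and Tgfbr2 at 471 and 406 CPM against 370 and 406 CPM. Counts are per gene and the floxed exons are not named in the labels, so the loss of an exon was not tested. Dcn, a matrix proteoglycan of fibroblasts, lay between 8966 and 15432 CPM in every library. The 2 comparisons were sequenced in separate runs with separate Cre drivers, and neither run nor driver can be separated from the choice of targeted genes.

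Complement is a cascade of plasma proteases and opsonins that tags microbes, immune complexes and damaged cells. The classical route begins with C1, in which C1q binds a target and the proteases C1r and C1s cleave C4 and C2. The alternative route amplifies deposited C3 with factor B (Cfb) and factor D (Cfd), and both routes meet at the cleavage of C3. C5 to C9 then assemble the membrane attack complex, while C1 inhibitor (Serping1) restrains the first steps of the classical route. The liver makes most circulating complement, and stromal cells such as fibroblasts are a known local source.

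Windows of 250 bases before and 50 bases from the annotated start were given by RefSeq (GRCm38.p6) for 5 of the 9 genes: C1s, C3, C6, C7 and Cfd. The windows of C3 and C7 are shown because these genes lay at the upper and lower end of the Tgfbr1/2 comparison, and that of C1s because it is the abundant classical protease and did not pass the test. All 3 lie on the minus strand and are written 5′ to 3′ along the gene, C3 at chr17:57228087-57228386, C7 at chr15:5063724-5064023 and the first of the 2 windows of C1s at chr6:124542310-124542609. Capitals mark matches to any motif searched.
C3: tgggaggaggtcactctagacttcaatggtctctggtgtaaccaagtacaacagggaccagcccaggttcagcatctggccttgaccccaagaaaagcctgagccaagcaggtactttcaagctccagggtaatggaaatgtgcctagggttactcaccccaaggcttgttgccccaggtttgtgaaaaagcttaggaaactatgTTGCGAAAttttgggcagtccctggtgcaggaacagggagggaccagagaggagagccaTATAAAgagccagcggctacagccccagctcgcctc
C7: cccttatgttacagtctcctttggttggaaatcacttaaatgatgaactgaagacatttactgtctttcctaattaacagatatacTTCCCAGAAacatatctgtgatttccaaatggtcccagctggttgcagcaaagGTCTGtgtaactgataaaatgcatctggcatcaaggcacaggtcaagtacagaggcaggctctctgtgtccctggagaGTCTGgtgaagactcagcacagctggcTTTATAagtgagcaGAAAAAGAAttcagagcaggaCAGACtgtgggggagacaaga
C1s: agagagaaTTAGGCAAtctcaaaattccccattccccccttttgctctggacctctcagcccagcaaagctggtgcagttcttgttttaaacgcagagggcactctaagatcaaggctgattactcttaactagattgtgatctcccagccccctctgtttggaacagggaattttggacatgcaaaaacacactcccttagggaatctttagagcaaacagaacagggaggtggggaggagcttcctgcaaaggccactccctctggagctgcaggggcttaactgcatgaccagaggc

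Both strands were searched, and no match in these windows overlapped another. The motifs were the SMAD box GTCTG, the C/EBP core TTGCNNAA, the STAT core TTCNNNGAA, the interferon-response core GAAANNGAA, the AP-1 motif TGANTCA, the TATA motif TATAAA and the NF-kB consensus. The C3 window held the C/EBP core from base -45 to -38, counted from the first base before the start, and a TATA motif from base 15 to 20 after it. The C7 window held 3 SMAD boxes, from -111, -33 and 30, with a STAT core, an interferon-response core and a TATA motif. The C1s window held 1 C/EBP core from -242. SMAD boxes stood in 49.6% of all 32851 windows in the table, C/EBP cores in 10.8%, STAT cores in 8.3%, interferon-response cores in 8.56%, AP-1 motifs in 7.81%, TATA motifs in 13.6% and the NF-kB consensus in 8.46%. These matches describe letters only.

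The 9 genes ranged from 3796 CPM down to the limit of detection. Together they took 0.781% and 0.732% of all counts in Tgfbr1/2 DKO, against 0.399% and 0.325% in Tcf21-Cre control. In Smad2/3 DKO they took 0.267% and 0.234%, against 0.264% and 0.189% in Postn-Cre control. C3 and Serping1 made up between 82.5% and 90.7% of these counts in every library. Divided by exon length (GENCODE vM21, the union of a gene's exons), the mean level over the 8 libraries was 773 CPM per kb for Serping1, 327 for C3, 97.1 for C1s, 40.8 for C7, 14.3 for C4b, 3.54 for Cfb and 2.13 for C2. C6 and Cfd followed at 0.251 and 0.189 CPM per kb. On the same scale C1ra, which encodes the partner protease of C1s and is not among the 9 genes, averaged 23.8 CPM per kb.

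**Figure D1:**
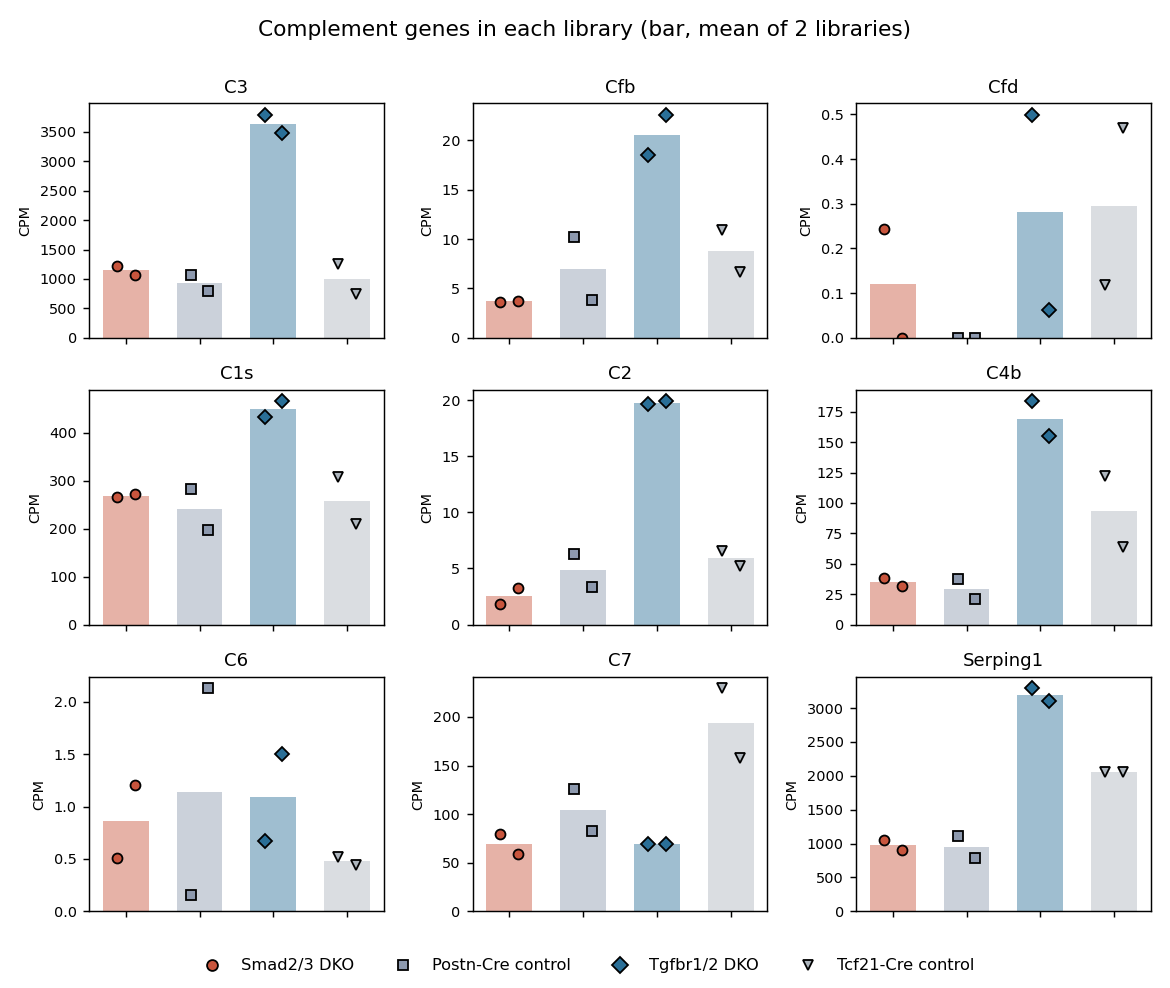
CPM (vertical axes, linear from 0) of the 9 complement genes in each library, with groups side by side. Points are libraries and bars the mean of the 2 libraries of a group. In Tgfbr1/2 DKO, C3 reached 3796 and 3485 CPM and C7 lay at 69.7 and 69.3 CPM, on opposite sides of their Tcf21-Cre control libraries.

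Deletion of the receptors went with more C3, C2 and Cfb RNA and less C7 RNA. In the Tgfbr1/2 comparison 4 of the 9 genes passed the test, C3, C2 and Cfb as higher and C7 as lower in Tgfbr1/2 DKO. Over all 16661 genes tested there, 3.94% passed, 2.63% as higher and 1.31% as lower. Tests are quasi-likelihood tests of edgeR, with p-values adjusted by Benjamini-Hochberg across every gene of the comparison. Errors given with log2 fold changes are standard errors, with 2 libraries per group.

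C3 (minus strand, chr17:57203970-57228136) encodes the central component on which all routes converge. It was at 3796 and 3485 CPM in Tgfbr1/2 DKO, against 1251 and 748 CPM in Tcf21-Cre control. Both DKO libraries lay far above both controls, and the controls differed more between themselves than the DKO libraries did. C3 rose 3.88-fold, a log2 fold change of 1.96 ± 0.27 (adjusted p = 0.00528). The call held in each of the 8 alternative settings, with log2 fold changes from 1.68 to 2.32.

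Cfb (chr17:34856374-34862518) encodes factor B, the protease subunit of the alternative C3 convertase. It was at 18.5 and 22.6 CPM in Tgfbr1/2 DKO and at 10.9 and 6.64 CPM in Tcf21-Cre control, without overlap. Cfb rose with a log2 fold change of 1.33 ± 0.29 (adjusted p = 0.0325). Without library HK4 of Tgfbr1/2 DKO the value was 1.11, and without library HK7 of Tcf21-Cre control it was 1.06, and neither fit kept the call. Such a fit leaves 1 library in a group, so a lost call does not show that it rested on the library left out. In a fit of all 8 libraries the adjusted p of Cfb was 0.200. Factor D, encoded by Cfd (chr10:79890853-79892655) and known as adipsin from fat cells, cleaves factor B. Its counts per library were between 0 and 16.3, which is 0.5 and 0.062 CPM in Tgfbr1/2 DKO against 0.12 and 0.47 CPM in Tcf21-Cre control, and no change could be read at that depth. Fat cell markers were mixed. Of the 10 listed, Fabp4, which endothelial cells and macrophages also express, was at 34.0 and 28.4 CPM in Tgfbr1/2 DKO and at 14.5 and 17.0 CPM in Tcf21-Cre control, and rose (log2 fold change 1.06 ± 0.22, adjusted p = 0.0277). In Smad2/3 DKO Fabp4 was at 16.6 and 10.6 CPM, against 39.9 and 4.44 CPM in Postn-Cre control. Pck1 and Acvr1c followed at means of 0.427 and 0.300 CPM over the 8 libraries, while Adipoq and Plin1, which define fat cells, were at most at 0.55 and 0.30 CPM in any library. The part of fat cells in these values was not tested.

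C2 (chr17:34862604-34898265), the neighbour of Cfb, encodes the protease subunit of the classical C3 convertase. It was at 19.7 and 19.9 CPM in Tgfbr1/2 DKO and at 6.58 and 5.24 CPM in Tcf21-Cre control. The DKO libraries nearly coincided and stood apart from the controls. C2 rose 3.55-fold, with a log2 fold change of 1.83 ± 0.26 (adjusted p = 0.0063), and 8 of 9 alternatives kept the call. The exception was the fit of all 8 libraries (adjusted p = 0.0561). Both C2 and Cfb overlap an annotated protein-coding gene on their strand, Gm20547, which had 684 and 672 counts in Tgfbr1/2 DKO and 314 and 189 counts in Tcf21-Cre control, so reads cannot be divided between the 3 with certainty. Summed over C2, Cfb and Gm20547, the log2 fold change was 1.51 (adjusted p = 0.00784).

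C1s and C4b, which act before C2, did not pass the test. C1s (chr6:124530345-124542359, named C1s1 by GENCODE) encodes the C1 protease that cleaves C4 and C2. It was at 432 and 465 CPM in Tgfbr1/2 DKO and at 308 and 209 CPM in Tcf21-Cre control, without overlap. Its log2 fold change was 0.89 ± 0.22, with a 95% interval from 0.40 to 1.38 (adjusted p = 0.0544), and without library HK6 of Tcf21-Cre control its adjusted p was 0.04998. C4b (chr17:34728380-34743882) encodes C4, which forms the convertase with C2, and was at 184 and 155 CPM in Tgfbr1/2 DKO and at 122 and 64.0 CPM in Tcf21-Cre control. Its log2 fold change was 0.95 ± 0.26 (adjusted p = 0.0868), and without library HK6 of Tcf21-Cre control it was 1.43 (adjusted p = 0.0121). C4a, its near-identical copy, carried 0.111 to 0.148 of the C4b count in every library, and the counts of the pair are uncertain in so far as reads match both.

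Serping1 (chr2:84765387-84775444) encodes C1 inhibitor, which inactivates C1r and C1s. It was at 3295 and 3106 CPM in Tgfbr1/2 DKO and at 2061 and 2060 CPM in Tcf21-Cre control. The 2 groups did not overlap, and each was tight. The log2 fold change was 0.71 ± 0.22, with a 95% interval from 0.22 to 1.21 (adjusted p = 0.108). DESeq2, used as an alternative, called C1s, C4b and Serping1 as higher (adjusted p = 0.00616, 0.0149 and 0.0122) and thereby 7 of the 9 genes. With no low-count filter, C1s and C4b also passed (adjusted p = 0.00836 and 0.0169). Both settings called more genes in all, 1102 by DESeq2 and 1198 with no filter, against 657 in the main fit.

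C7 was the single gene of the 9 that fell. It encodes the component that anchors the growing membrane attack complex in a lipid bilayer (chr15:4988762-5063740). C7 was at 69.7 and 69.3 CPM in Tgfbr1/2 DKO, against 230 and 158 CPM in Tcf21-Cre control. Both DKO libraries lay below the lower control by more than the DKO libraries differed between themselves. The log2 fold change was -1.39 ± 0.20 (adjusted p = 0.00709), and all 8 alternatives kept the call, with values from -1.58 to -1.15. Within each library, the C7 count was 0.0184 and 0.0199 of the C3 count in Tgfbr1/2 DKO and 0.184 and 0.211 of it in Tcf21-Cre control. Such a ratio needs no scaling between libraries, but this one also holds the rise of C3. The C7 count was 0.021 and 0.022 of the Serping1 count in Tgfbr1/2 DKO and 0.11 and 0.077 of it in Tcf21-Cre control. Serping1 was itself higher in both DKO libraries. C6 (chr15:4727175-4814967), the component that binds before C7, had 22 and 45 counts in Tgfbr1/2 DKO and 15 and 13 counts in Tcf21-Cre control, with a log2 fold change of 1.28 ± 0.72 (adjusted p = 0.359).

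**Figure D2:**
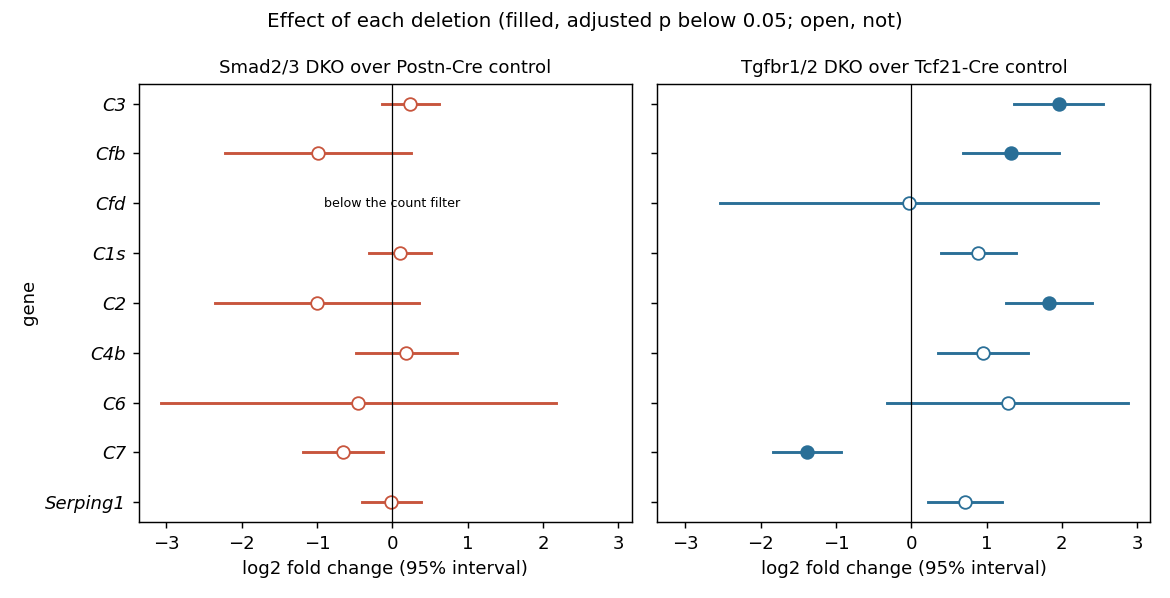
Log2 fold change (horizontal axes) of the 9 genes in the Smad2/3 comparison (left) and the Tgfbr1/2 comparison (right), with 95% intervals from edgeR; filled points had an adjusted p below 0.05. On the right C3, C2 and Cfb lie at 1.96, 1.83 and 1.33 and C7 at -1.39, while every point on the left is open.

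In the Smad2/3 comparison none of the 9 genes passed the threshold by edgeR. Of the 8 genes tested (Cfd was too low) 0 passed by edgeR or by DESeq2, and 1 had an unadjusted p below 0.05 by edgeR, as did 13.6% of all genes tested. Over all 15764 genes tested in this comparison, 1.31% passed, 0.45% as higher and 0.856% as lower in Smad2/3 DKO. C3 was at 1225 and 1070 CPM in Smad2/3 DKO and at 1072 and 790 CPM in Postn-Cre control. Its log2 fold change was 0.24 ± 0.17, with a 95% interval from -0.14 to 0.62 (adjusted p = 0.61), so that a rise of the size seen in the Tgfbr1/2 comparison lay outside the interval.

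The abundant genes of the classical route gave overlapping groups. Serping1 was at 1055 and 905 CPM in Smad2/3 DKO and at 1109 and 788 CPM in Postn-Cre control, a log2 fold change of -0.01 ± 0.18 with a 95% interval from -0.41 to 0.38. C1s was at 266 and 271 CPM against 283 and 196 CPM, with an interval from -0.31 to 0.52. C4b was at 37.9 and 31.7 CPM against 37.4 and 21.2 CPM, with an interval from -0.49 to 0.86. For Serping1 and C1s, both DKO libraries lay between the 2 control libraries, and for C4b library HK15 lay just above them.

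Control library HK3 was above control library HK4 for C3, C1s, C4b, C2, Cfb, C7 and Serping1. C2 was at 1.86 and 3.23 CPM in Smad2/3 DKO and at 6.33 and 3.34 CPM in Postn-Cre control, and Cfb at 3.65 and 3.71 CPM against 10.2 and 3.81 CPM. Neither pair of groups overlapped, but control library HK4 lay close to the DKO libraries in both genes. The log2 fold changes were -0.996 ± 0.62 for C2 (adjusted p = 0.537) and -0.99 ± 0.56 for Cfb (adjusted p = 0.498). Without control library HK3 they were -0.44 and -0.09. The summed level of 12 endothelial markers was 449 and 346 CPM in Smad2/3 DKO and 798 CPM in library HK3 and 422 CPM in library HK4 of Postn-Cre control. Library HK3 was also above HK4 in pericyte and smooth muscle markers (1452 against 788 CPM) and fat cell markers (40.7 against 5.36 CPM). It was below HK4 in myeloid markers (26.6 against 31.7 CPM) and Schwann cell markers (29.4 against 33.4 CPM). The part of such cells in the values of C2 and Cfb was not tested.

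C7 had the smallest p of the 9 genes in this comparison. It was at 79.7 and 58.7 CPM in Smad2/3 DKO and at 126 and 82.6 CPM in Postn-Cre control, with the highest DKO library just under the lowest control. The log2 fold change was -0.65 ± 0.24 (unadjusted p = 0.0211, adjusted p = 0.255). C6 had 13 and 26 counts in Smad2/3 DKO and 4 and 49 counts in Postn-Cre control, too few to order the groups. Cfd had 6.19 and 0 counts in Smad2/3 DKO and 0 in both Postn-Cre control libraries, where 3 counts would be 0.12 and 0.13 CPM.

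The authors' deposited table gave log2 fold changes of 1.91 for C3, 1.75 for C2, 1.26 for Cfb, 0.93 for C4b, 0.82 for C1s, 0.63 for Serping1 and -1.45 for C7 in the Tgfbr1/2 comparison. For Smad2/3, the authors' deposited table gave 0.31 for C3, 0.30 for C4b, 0.19 for C1s, 0.06 for Serping1, -0.20 for C2, -0.58 for C7 and -0.76 for Cfb, and 0 for C6 and Cfd in both comparisons.

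Whether the 2 deletions differed was tested as an interaction over all 8 libraries, the Smad2/3 effect minus the Tgfbr1/2 effect. C3 differed by -1.72 ± 0.34 on the log2 scale (adjusted p = 0.0332) and C2 by -2.84 ± 0.60 (adjusted p = 0.0404). These were 2 of the 9 genes tested, where 1.83% of all 17772 genes passed, 0.664% as higher and 1.17% as lower. C7, with 0.73 ± 0.35 (adjusted p = 0.314), Cfb, with -2.33 ± 0.64 (adjusted p = 0.0991), C1s, with -0.80 ± 0.32 (adjusted p = 0.227), and Serping1, with -0.74 ± 0.29 (adjusted p = 0.229), did not pass. Cfb did pass by DESeq2 (adjusted p = 0.0084), with no low-count filter (adjusted p = 0.0018), summed with C2 and Gm20547 (adjusted p = 0.0426) and without HK4 of Postn-Cre control (adjusted p = 0.0249). The call of C3 was lost without any of the libraries other than HK4 of Postn-Cre control and HK6 of Tcf21-Cre control, with values from -1.83 to -1.45 and adjusted p up to 0.116. That of C2 was lost without any of them other than HK4 of Postn-Cre control, with values from -3.30 to -2.28 and adjusted p up to 0.170. Run and Cre driver also differ between the 2 effects and cannot be told apart from the targeted genes here.

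The rest of the system was read from a list of 55 complement genes, the 9 included, of which 53 were found. In the Tgfbr1/2 comparison 7 of 42 tested genes rose and 2 fell, with a median log2 fold change of 0.46 against -0.01 over all genes tested. In the Smad2/3 comparison 1 of 37 rose and none fell, with a median of -0.01 against 0.01 over all genes. Over all genes tested, 2.63% rose and 1.31% fell in the Tgfbr1/2 comparison, and 0.45% rose and 0.856% fell in the Smad2/3 comparison. Of the initiation genes, C2 alone of 13 passed as higher in Tgfbr1/2 DKO. Of these 13, 11 had a log2 fold change above 0, with a median of 0.74 over all 13. C1ra was at 130 and 123 CPM in Tgfbr1/2 DKO and at 90.1 and 89.9 CPM in Tcf21-Cre control, with a log2 fold change of 0.57 ± 0.17 (adjusted p = 0.105). Cfp, which encodes properdin, the stabiliser of the alternative convertase, was between 2.16 and 6.37 CPM in the 8 libraries, and Hc, the mouse C5 gene, between 0.56 and 2.63 CPM. Neither passed in the Smad2/3 or the Tgfbr1/2 comparison.

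Among the soluble regulators, Cfhr2 fell in Tgfbr1/2 DKO and did not pass edgeR's test in Smad2/3 DKO, and both outcomes depended on the setting. It was at 57.0 and 64.7 CPM in Tgfbr1/2 DKO and at 104 and 127 CPM in Tcf21-Cre control, with a log2 fold change of -0.85 ± 0.21 (adjusted p = 0.049). Without HK2 or HK4 of Tgfbr1/2 DKO or HK7 of Tcf21-Cre control, that call was lost (adjusted p up to 0.264), as it was with DESeq2's size factors (adjusted p = 0.0522) and in the fit of all 8 libraries (adjusted p = 0.0593). In Smad2/3 DKO it was at 258 and 271 CPM, against 173 and 154 CPM in Postn-Cre control, a log2 fold change of 0.63 ± 0.16 (adjusted p = 0.0869), which passed by DESeq2 (adjusted p = 0.0169) and with no low-count filter (adjusted p = 0.0227). The groups did not overlap in either comparison, with the DKO libraries above their controls in the Smad2/3 comparison and below them in the Tgfbr1/2 comparison. The 2 effects differed by 1.47 ± 0.27 on the log2 scale (adjusted p = 0.0259) in the interaction test. That call was lost without 6 of the 8 libraries, namely HK15 and HK16 of Smad2/3 DKO, HK3 and HK4 of Postn-Cre control, HK2 of Tgfbr1/2 DKO and HK7 of Tcf21-Cre control, with adjusted p up to 0.0815. Cfhr2 belongs to a family of similar genes, and its reads may be split with other members. Clu, which encodes clusterin, an inhibitor of the terminal complex, was at 23.8 and 29.6 CPM in Tgfbr1/2 DKO and at 37.4 and 19.2 CPM in Tcf21-Cre control.

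Many membrane regulators protect the cell that carries them. Of 9 on the list tested in the Tgfbr1/2 comparison, Csmd1 alone passed as higher, where 2.63% of all genes tested did. It was at 12.2 and 11.8 CPM in Tgfbr1/2 DKO against 4.87 and 1.65 CPM in Tcf21-Cre control, with a log2 fold change of 1.98 ± 0.44 (adjusted p = 0.0445). That call was lost without HK2 or HK4 of Tgfbr1/2 DKO or HK7 of Tcf21-Cre control, with log2 fold changes of 2.03, 1.95 and 1.44 (adjusted p = 0.0875, 0.107 and 0.0704), and in the fit of all 8 libraries (adjusted p = 0.0717). Cd55, the decay-accelerating factor, had 227 and 172 CPM in Tgfbr1/2 DKO and 248.6 and 191 CPM in Tcf21-Cre control (log2 fold change -0.06 ± 0.20). It was at 314 and 292 CPM in Smad2/3 DKO and at 494 and 356 CPM in Postn-Cre control, a log2 fold change of -0.55 ± 0.18 (adjusted p = 0.183). Cr1l, the rodent regulator Crry, was at 179 and 186 CPM in Tgfbr1/2 DKO and 134 and 169 CPM in Tcf21-Cre control. Cd59a, which blocks the terminal complex, was at 23.1 and 24.5 CPM against 15.8 and 20.7 CPM. Vsig4 had 71.3 and 15 counts in Tgfbr1/2 DKO and 4 and 0 counts in Tcf21-Cre control. Its log2 fold change by edgeR was 4.27 ± 1.17 and did not pass (adjusted p = 0.0787).

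Of 7 receptors tested in the Tgfbr1/2 comparison, 3 rose, where 2.63% of all genes tested did. C5ar1, the receptor of C5a, was at 10.1 and 9.32 CPM in Tgfbr1/2 DKO and at 1.20 and 2.98 CPM in Tcf21-Cre control, with a log2 fold change of 2.27 ± 0.45 (adjusted p = 0.0246). C3ar1, the receptor of C3a, was at 7.85 and 11.3 CPM against 2.75 and 3.46 CPM, with a log2 fold change of 1.72 ± 0.36 (adjusted p = 0.0286). Itgam, a chain of complement receptor 3 on myeloid cells, was at 8.59 and 7.94 CPM against 3.10 and 2.21 CPM, with a log2 fold change of 1.72 ± 0.34 (adjusted p = 0.0231). All 3 calls were lost in at least 1 fit that left out a library and so kept 1 library in a group. In the fit of all 8 libraries those of C5ar1 and C3ar1 were lost too (adjusted p = 0.0944 and 0.230). Without HK4 of Tgfbr1/2 DKO the log2 fold changes were 2.26 for C5ar1, 1.35 for C3ar1 and 1.72 for Itgam (adjusted p = 0.0559, 0.190 and 0.0793). C3ar1 was also lost without HK6 or HK7 of Tcf21-Cre control (1.52 and 1.96, adjusted p = 0.100 and 0.068), and Itgam without HK2 of Tgfbr1/2 DKO or HK7 of Tcf21-Cre control (1.75 and 1.56, adjusted p = 0.056 and 0.0854). Of the other receptors, Cd93 was at 34.7 and 15.7 CPM in Smad2/3 DKO and at 103 and 36.9 CPM in Postn-Cre control, a log2 fold change of -1.54 ± 0.46 (adjusted p = 0.142). C1qbp lay between 28.4 and 52.8 CPM and Gpr77, the second C5a receptor, between 4.36 and 8.29 CPM in the 8 libraries, and neither passed in either comparison.

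**Figure D3:**
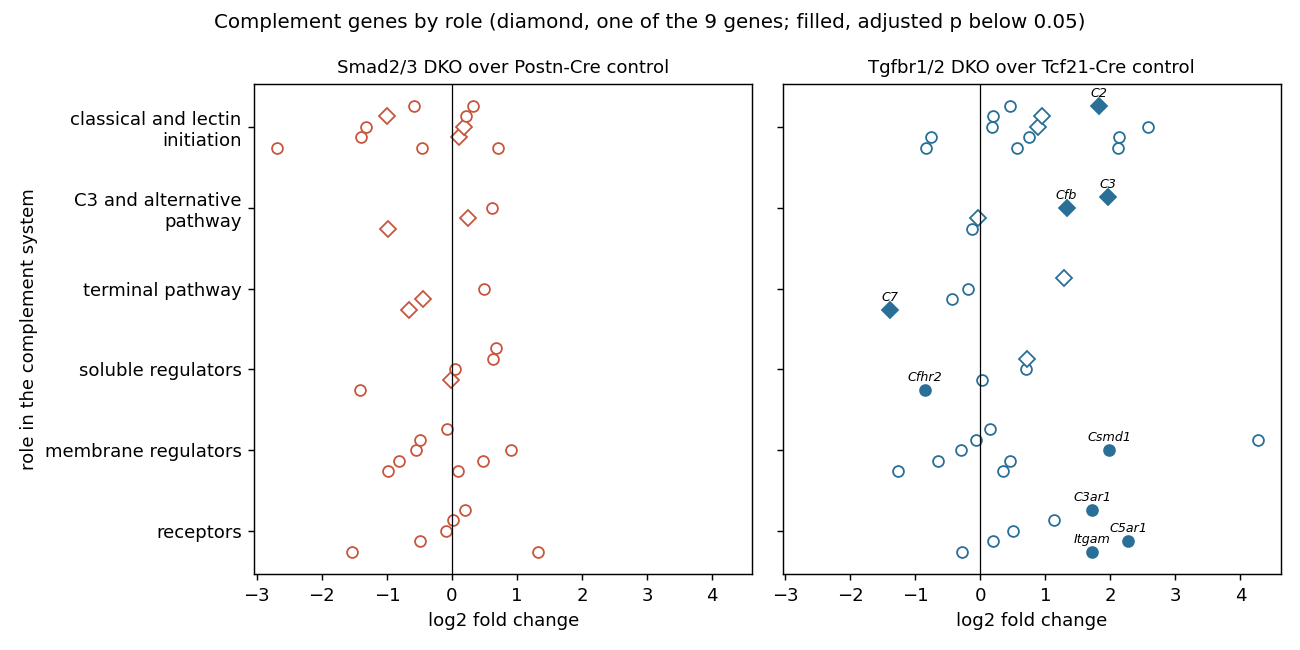
Log2 fold change (horizontal axes) of complement genes tested in the Smad2/3 comparison (left) and the Tgfbr1/2 comparison (right), in rows by role; vertical offsets within a row only separate points. Diamonds are the 9 genes, filled symbols had an adjusted p below 0.05 and are named. On the right 7 filled symbols lie above 0 and 2 below it; 1 tested gene is not drawn, and all symbols drawn on the left are open.

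C5ar1, C3ar1 and Itgam are also genes of myeloid cells, and markers of such cells were higher in the Tgfbr1/2 comparison too. The 14 myeloid markers summed to 175 and 173 CPM in Tgfbr1/2 DKO and to 48.3 and 71.0 CPM in Tcf21-Cre control. Of 13 tested, 4 rose there (Cd14, Csf1r, Emr1 and Fcer1g) and all 13 had a log2 fold change above 0, with a median of 1.66. Over all genes tested in that comparison, 2.63% rose. Lyz2, the lysozyme of macrophages and neutrophils, had the highest mean of the 14 and so weighed most in the sum. It was at 82.5 and 90.6 CPM against 9.91 and 26.6 CPM and did not pass by edgeR (adjusted p = 0.102). Csf1r was at 15.1 and 19.2 CPM against 5.92 and 8.39 CPM, and Cd68 at 18.4 and 15.5 CPM against 22.1 and 13.8 CPM. Ptprc, the pan-leukocyte gene, was at 1.69 and 2.09 CPM against 1.27 and 0.90 CPM. C1qb, made by macrophages, was at 18.5 and 14.3 CPM against 0.72 and 4.94 CPM (adjusted p = 0.232). In Smad2/3 DKO the markers summed to 21.5 and 21.2 CPM, against 26.6 and 31.7 CPM in Postn-Cre control, and Ptprc and Emr1 were at 0 in both DKO libraries. Itgam did not follow that sum, at 8.99 and 12.4 CPM in Smad2/3 DKO and 3.86 and 4.34 CPM in Postn-Cre control. Its log2 fold change by edgeR was 1.33 ± 0.43 (adjusted p = 0.184), while those of C5ar1 and C3ar1 were -0.49 and -0.09. None of the 14 markers was at 0 in all libraries. Of the other lists of markers, 1 gene each rose in Tgfbr1/2 DKO for endothelial cells (Eng, of 12 tested), mural cells (Acta2, of 8), mesothelium (Lrrn4, of 4) and fat cells (Fabp4, of 1). The 3 highest markers were Ptprb, Eng and Tek for endothelial cells, Rgs5, Abcc9 and Acta2 for mural cells, Ttn, Actc1 and Tnnt2 for cardiomyocytes, Cdh19, Kcna1 and S100b for Schwann cells, Cd79a, Cd3e and Cd79b for lymphocytes, Wt1, Upk3b and Lrrn4 for mesothelium and Dcn, Col1a2 and Lum for fibroblasts. The part of these cells in the values of C3, C2, Cfb and the receptors was not tested, and in bulk RNA a change in the number of cells of a type and one in RNA per cell cannot be told apart.

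**Figure D4:**
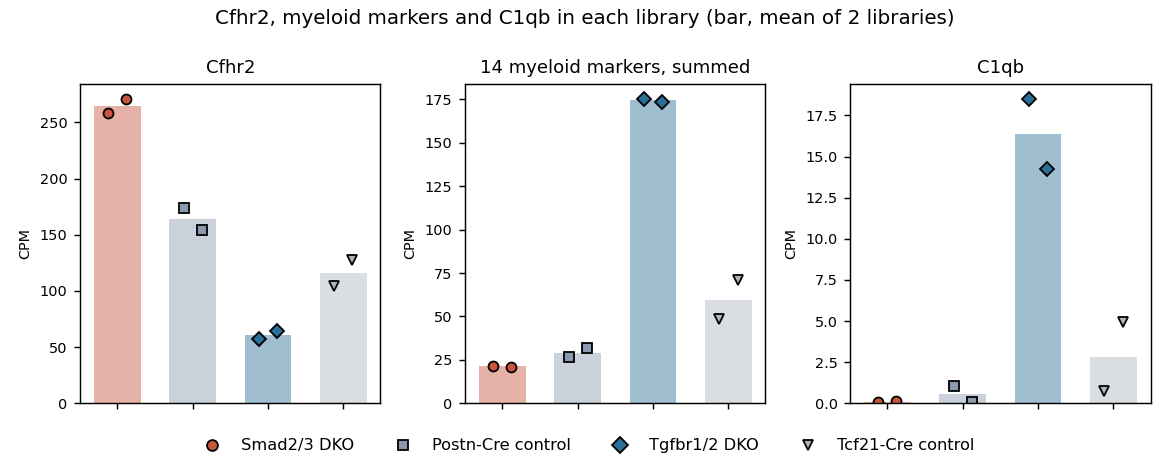
CPM (vertical axes, linear from 0) of Cfhr2, the sum of 14 myeloid markers and C1qb in each library; points are libraries and bars the mean of 2. Cfhr2 stands at 258 and 271 CPM in Smad2/3 DKO and at 57.0 and 64.7 CPM in Tgfbr1/2 DKO, and the myeloid sum at 175 and 173 CPM in Tgfbr1/2 DKO.

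Interferons and inflammatory cytokines are known inducers of C3, C2 and Cfb, so the genes of those programmes were read beside them. Of 20 interferon-response genes tested by edgeR, 0 passed in either comparison, and 4 had an unadjusted p below 0.05 in the Tgfbr1/2 comparison and 5 in the Smad2/3 comparison. Over all genes tested that share was 19.99% in the Tgfbr1/2 comparison and 13.6% in the Smad2/3 comparison. Of 20 NF-kB and acute-phase genes, 3 rose in Tgfbr1/2 DKO and 17 did not pass, where 2.63% of all genes tested rose. Those 3 were chosen for naming after their values were seen. Lcn2 was at 27.1 and 24.5 CPM in Tgfbr1/2 DKO and at 1.66 and 1.08 CPM in Tcf21-Cre control, Saa3 at 14.4 and 13.2 CPM against 0.79 and 0.10 CPM, and Hp at 6.32 and 7.18 CPM against 0.11 and 0.034 CPM. The log2 fold change of Lcn2 was 4.30 ± 0.30 (adjusted p = 8.3e-05). In the Smad2/3 comparison 3 of 19 rose, Ccl2, Nfkbia and Tnfaip3, and Il1r1 fell. Over all genes tested there, 0.45% rose and 0.856% fell. Nfkbia, which encodes an inhibitor of NF-kB, was at 183 and 167 CPM in Smad2/3 DKO and at 75.2 and 53.9 CPM in Postn-Cre control. In the Tgfbr1/2 comparison its log2 fold change was 0.15 ± 0.26 by edgeR (adjusted p = 0.80). The part of either programme in the values of C3, C2 and Cfb was not tested.

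The 2 control groups were also compared with each other, which shares libraries with both other comparisons. Tcf21-Cre control was set over Postn-Cre control, and run and driver change together in it. Of 8 genes tested, 2 were higher in Tcf21-Cre control, where 33.9% of all 16573 genes passed, 17.3% as higher and 16.6% as lower, so the 9 genes did not stand out from the background. Serping1 was at 2061 and 2060 CPM in Tcf21-Cre control and at 1109 and 788 CPM in Postn-Cre control (log2 fold change 0.78 ± 0.23, adjusted p = 0.0343). C4b was at 122 and 64.0 CPM against 37.4 and 21.2 CPM (1.32 ± 0.36, adjusted p = 0.0281). Without library HK4 of Postn-Cre control neither call held, with 0.56 for Serping1 and 0.97 for C4b (adjusted p = 0.223 and 0.0704), and C4b was also lost without HK6 of Tcf21-Cre control (0.85, adjusted p = 0.079). C3 was at 1251 and 748 CPM against 1072 and 790 CPM, and its log2 fold change of -0.25 ± 0.27 did not pass (adjusted p = 0.52). Fold changes here are lower than the ratios of CPM, since the TMM scaling factors were 1.16 and 1.09 in Tcf21-Cre control and 0.884 and 0.896 in Postn-Cre control.

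Of all 38 complement genes tested between the controls, 7 were higher and 6 lower in Tcf21-Cre control, which is again near the share over all genes. The other higher ones were C1ra, C1rl, C1qc, C4a and Clu, with C1ra at 90.1 and 89.9 CPM in Tcf21-Cre control against 32.6 and 26.4 CPM in Postn-Cre control. The lower ones were Cd55, Daf2, Cd59a, Cfhr2, C1qbp and Masp2. Daf2, a copy of Cd55, was at 9.77 and 8.64 CPM in Tcf21-Cre control and at 25.4 and 19.4 CPM in Postn-Cre control. Without single libraries the calls of C1qc, C4a, Clu, Cfhr2, Cd59a, C1qbp and Masp2 were lost, with adjusted p up to 0.653 for C1qc without HK7 of Tcf21-Cre control, while those of C1ra, C1rl, Cd55 and Daf2 were kept.

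Across the 4 groups, the order of levels differed from gene to gene. For C3, C2, Cfb and C1s, Tgfbr1/2 DKO was the highest group and its libraries stood above all 6 others, whose groups overlapped for C3 and C1s. For C2 and Cfb the control groups overlapped each other and Smad2/3 DKO lay at the bottom, by a narrow margin to library HK4 of Postn-Cre control. For Serping1, Tgfbr1/2 DKO was followed by Tcf21-Cre control and then by Smad2/3 DKO and Postn-Cre control, which overlapped, and C4b had the same order. C7 was highest in Tcf21-Cre control, followed by Postn-Cre control, and Smad2/3 DKO and Tgfbr1/2 DKO overlapped at the bottom.

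The genes whose pattern over the 8 libraries was most like that of a gene were read from 7796 genes with a mean of at least 10 CPM, by Pearson correlation of log2(CPM + 1). They describe libraries that share run and driver. C3 was nearest to Mcfd2 (r = 0.977), which was at 93.4 and 93.9 CPM in Tgfbr1/2 DKO and between 41.7 and 53.1 CPM elsewhere, and then to Tmem176a and Xbp1. C1s was nearest to C3 itself (r = 0.962), then to Mtch2 and Nudcd1. C2 was nearest to S1pr3 (r = 0.983), Fez2 and Nono, and Cfb to Plin2 (r = 0.977), Cav1 and Alg12. C4b was nearest to C4a (r = 0.996), Parp3 and Hsd11b1, and Serping1 to Atp5o (r = 0.997), Actb and Ergic1. Cfd was nearest to Srek1ip1 (r = 0.927), Pcid2 and Pcbd2, from very few counts. C7 was nearest to Igsf10 (r = 0.970), which was at 277 and 248 CPM in Tgfbr1/2 DKO and at 526 and 392 CPM in Tcf21-Cre control, and then to Reck and Tek.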

How the data were processed

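For every library the authors deposited expected counts of Ensembl genes (12.6% of those above 0 are whole). The build is mm10, per the submitters' processing notes; no source used here names the aligner or the counting tool. The authors' deposited tables also hold log2 values per library, centred on each gene's median, and log2 fold changes, which equal the differences of their group means; further columns give the fold as a ratio and as a signed score, per the file headers. The labels' protocols describe no step that marks strand.

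Counts were summed per symbol and rounded for the tests. CPM is the unrounded count divided by the library total, times 1000000. edgeR 4.0.16 (TMM, filterByExpr, robust quasi-likelihood fit, two-sided, R 4.3.3) was fitted to all genes of a comparison's 4 libraries, or of 8 for the interaction, with a threshold of 0.05 after Benjamini-Hochberg adjustment. The fits were tested on simulated counts. DESeq2 1.42.0, its size factors, no filter, a fit of all 8 libraries and leaving out each library were alternatives; sums over genes that can share reads were added after seeing the data. The genes, lists and tests were chosen with earlier results of these data known. All 9 genes are named, with other complement genes that passed in any comparison or had the 3 highest means of their role, the 3 highest markers of a cell type and the 3 nearest patterns; 1 complement gene, counted in the lists, and the patterns nearest to C6 are not reported here. Vsig4, other markers and genes of other lists were named after their values were seen. The labels pair no libraries between groups. The floor of 3 counts covers counting error alone, as amplified reads are not separate molecules.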

Additional observations from a re-analysis of the deposited data

Results flagged for a closer look

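The difference between the Smad2/3 effect and the Tgfbr1/2 effect, on the log2 scale, passed the threshold in the interaction test for C3, C2 and Cfhr2. It was -1.72 for C3 (adjusted p = 0.0332) and -2.84 for C2 (adjusted p = 0.0404), which were higher in both Tgfbr1/2 DKO libraries than in all 6 others. For Cfhr2 it was 1.47 (adjusted p = 0.0259), where both Smad2/3 DKO libraries lay above their controls and both Tgfbr1/2 DKO libraries below theirs. Each of these calls was lost in most fits that left out a library. Run and Cre driver also differ between the effects and cannot be told apart from the targeted genes.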

How the results depend on the processing

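With 2 libraries per group, counts of calls depended on the fit; causes were not tested. In the Tgfbr1/2 comparison, 4 of the 9 genes were called, 7 by DESeq2, 2 in the fit of all 8 libraries and 3 to 6 without 1 library. All complement genes called there numbered 9, against 14 with no filter, 16 by DESeq2, 3 in the fit of all 8 libraries and 4 to 11 without 1 library. In the Smad2/3 comparison 1 complement gene was called, against 4 with no filter, 2 by DESeq2, 0 in the fit of all 8 libraries and 0 to 3 without 1 library. In the interaction 4 were called, against 9 with no filter, 8 by DESeq2 and 0 to 3 without 1 library, when 0 to 3 of the 9 genes passed. Between controls 2 of the 9 genes and 13 complement genes were called, against 0 to 4 and 7 to 16 without 1 library. Over all genes, calls numbered 206 for Smad2/3 (819 with no filter, 766 by DESeq2, 100 without HK15), 657 for Tgfbr1/2 (1198, 1102, 299 in the fit of all 8 libraries, 273 to 492 without 1 library), 326 for the interaction (1190, 1136, 89 to 294 without 1 library) and 5613 between controls (3164 to 6818 without 1 library).

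Of the log2 fold changes of single genes recomputed, 728 kept direction and side of the threshold, 31 gained a call, 68 lost one and 40 changed sign, all of the last without a call. Without 1 library, Smad2/3 values ranged from -0.15 to 0.41 for C1s, -0.17 to 0.68 for C4b, -1.34 to 2.37 for C6, -0.25 to 0.28 for Serping1, -0.062 to 0.57 for C4a, -0.48 to 0.91 for Clu, -1.47 to 0.61 for C3ar1 and -0.26 to 0.26 for C1qbp. Tgfbr1/2 values ranged from -1.92 to 1.51 for Cfd, -0.48 to 0.72 for Masp2, -0.34 to 0.52 for Clu and -0.19 to 0.086 for Cd55. Interaction values ranged from -2.63 to 1.07 for C6 and -0.53 to 0.89 for Clu, which was -0.0097 with DESeq2's size factors and -0.014 by DESeq2. Values between controls ranged from -0.48 to 0.093 for C1s, -0.44 to 0.52 for C2, -0.60 to 0.055 for C3, -2.44 to 1.28 for C6, -0.56 to 0.89 for Cfb and -0.16 to 1.24 for C5ar1. Cfb was 0.0087 there with no filter and 0.015 in the fit of all 8 libraries, and C2 and Cfb summed with Gm20547 gave 0.049. No paired analysis was possible because the labels give no number that links libraries of different groups. Depth limits C6 and Cfd, with at most 49 and 16.3 counts in a library.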
